A study of Mus musculus with 6 samples.

Results

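The genes described here encode 8 families of contact and gradient signals that steer axons and growing vessels: semaphorins, plexins, ephrins, Eph receptors, Slits, Robos, netrins and Unc5 receptors. They were taken by gene symbol from the deposited count table, which gave 66 genes of 24421, and the neuropilin coreceptors were outside this rule. Of the 66 genes, 55 had enough counts in the cultures to be tested, among 13479 genes tested in all. The other 11 genes (*Epha6*, *Epha8*, *Epha10*, *Ephb1*, *Ntn5*, *Plxnb3*, *Robo3*, *Robo4*, *Sema4a*, *Sema5b* and *Slit1*) were under the filter, and their counts are given with their class.

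RNA was sequenced from 3 *Nhe6*-knockout and 3 wildtype cultures of primary endothelial cells of the stria vascularis, the vascular epithelium in the lateral wall of the cochlea. Mice were on postnatal days 10 to 12, cells of several mice were pooled for a culture and purified by cell sorting after culture, and no culture was treated. The *Nhe6*-knockout mice carried a targeted gene disruption. The labels give the strain background C57BL/6N for both genotypes, whereas the methods of the study name a C57BL/6J background. Values are normalized counts, that is, reads per gene scaled to the mean library size. Fold changes are *Nhe6*-knockout relative to wildtype, from 3 cultures per genotype, with a standard error (SE). This SE was worked back from the F statistic of the edgeR test named below, which shares information on spread among genes. Levels of different guidance genes are compared only as normalized counts per kilobase of merged exons. Levels of marker and partner genes and sums of markers are normalized counts, not scaled to gene length. Adjusted p-values are from edgeR's two-sided quasi-likelihood test over all genes tested, with a threshold of 0.05, and the smallest two-sided exact permutation p for 3 against 3 cultures is 0.1.

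Semaphorins bind plexins, in class 3 mostly together with a neuropilin, and plexins act on small GTPases and the cytoskeleton to repel or collapse the growing edge of a cell. Ephrins are bound to the membrane and meet Eph receptor tyrosine kinases on the neighbouring cell, with signals that run into both cells. Slits are secreted ligands of Robo receptors, and netrins attract or repel cells through DCC, neogenin and Unc5 receptors. In blood vessels these families pattern sprouts, separate arteries from veins and act on barrier and migration. *Sema3e* with *Plxnd1*, *Efnb2* with *Ephb4*, *Slit2* with *Robo1* and *Unc5b* are among their best known vascular members.

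The libraries held 25587097 to 29126232 counts on genes. Wildtype culture 2 stood apart on the principal component that held 50.8% of the variance, at 112 against -30.4 to -6.49, so values without it are given beside results that it moves. *Nhe6*-knockout cultures 1 and 2 were closest, with a chi-square per degree of freedom of 4.91 between their counts against 90.1 to 398 for the other pairs of a genotype, and no label says whether cultures came from separate isolations, so p-values may in part measure technical spread. *Nnt*, which C57BL/6J mice lack in part, was at 1225 to 1393 in *Nhe6*-knockout and 3555 to 4514 in wildtype cultures (adjusted p = 0.023), so genotype and mouse substrain cannot be told apart. Endothelial markers were mixed, and many were scarce or absent: *Cldn5* and *Sox17* had no count and *Pecam1* at most 8 counts in a library. *Tie1*, *Sox18*, *Ecscr*, *Nos3* and *Erg* had at most 15.5 normalized counts, *Vwf* at most 23.2 and *Kdr* at most 70.2. *Emcn* reached 18393 and *Eng* 5081 normalized counts, in *Nhe6*-knockout cultures 1 and 2. *Cd34* (4867), *Flt1* (3175) and *Tek* (1006) had their highest values in wildtype culture 2. Of 20 such markers 11 were tested, 5 higher and 6 lower, against 12 of 12 fibroblast and 12 of 12 mural markers tested. Across the 6 cultures the 12 fibroblast markers summed to 183362 to 320920 normalized counts, and the 20 endothelial markers to 16034 to 25982. *Cdh5*, the gene of VE-cadherin, fell from 2509, 5200 and 3470 normalized counts in wildtype to 220, 232 and 179 in *Nhe6*-knockout cultures. Its log2 fold change was -4.15 ± 0.31 (adjusted p = 0.0133), and it was the endothelial marker past the threshold with all 6 cultures. Without wildtype culture 2, *Tek* also passed (log2 1.68, adjusted p = 0.0342). The summed level of the endothelial list was 16904 to 25982 in *Nhe6*-knockout and 16034 to 23813 in wildtype cultures. *Emcn* made up most of it except in wildtype culture 2. There *Emcn* had 410 normalized counts, against 13413 and 14730 in wildtype cultures 1 and 3. In these bulk cultures, fewer cells of a type and less RNA per cell cannot be told apart.

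None of the 55 genes passed the adjusted threshold in edgeR's test, which 0.0668% of all genes passed. At an unadjusted p under 0.05, 9 of the 55 genes (16.4%) were higher in *Nhe6*-knockout cultures, against 6.14% of all genes tested, and 5 (9.09%) were lower, against 5.71%. All 3 *Nhe6*-knockout cultures lay above all 3 wildtype cultures for 11 genes (20%, against 10.3% of all genes) and below them for 6 (10.9%, against 9.57%). DESeq2's Wald test gave 6 of the 51 genes with an adjusted p (11.8%) a value under 0.05, against 4.69% of all genes, and these were *Unc5b*, *Sema3e* and *Sema3g* (higher) and *Sema3d*, *Sema3f* and *Epha3* (lower). For *Sema3c*, *Ntn1*, *Slit3* and *Efna3*, DESeq2 gave no p. The direction was mixed, with 32 of the 55 genes higher and 23 lower in *Nhe6*-knockout cultures and a median of 0.08 in log2 fold change, against -0.02 over all genes tested.

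These genes also varied more than most. Their median absolute log2 fold change was 0.49 and their median SE 0.45, against 0.22 and 0.23 over all genes tested. Wildtype culture 2 held the highest value of the 6 cultures for 22 of the 55 genes and the lowest for 14, or 65.5% together, against 53.3% of all genes tested. Without it the median SE of the family was 0.29 against 0.20 over all genes, and 13 of the 55 guidance genes had the opposite direction, against 2405 of 13479.

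**Figure D1:**
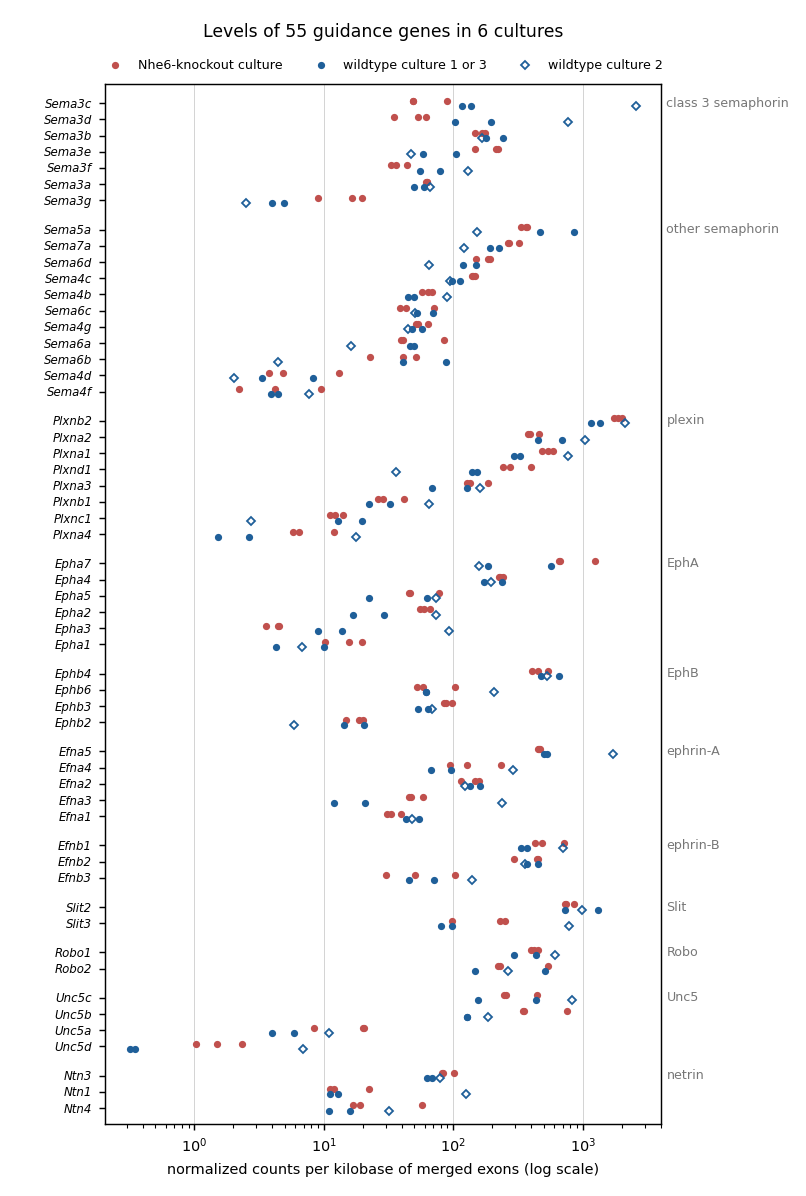
Level of the 55 tested genes in each culture, as normalized counts per kilobase of merged exons on a log scale, grouped by class and ordered by mean level. Red points are the 3 *Nhe6*-knockout cultures, blue points wildtype cultures 1 and 3, and open diamonds wildtype culture 2, which lies far to the right of the other cultures for *Sema3c*, *Epha3* and *Ntn1* and far to the left for *Plxnd1*.

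The region before the RefSeq transcription start is shown for 5 genes, chosen after their values were seen. *Sema3e* and *Plxnd1* are a ligand and its receptor that were both higher in every *Nhe6*-knockout culture, *Sema3g* and *Unc5b* had the largest fold changes above 1, and *Sema3c* was the gene that wildtype culture 2 held at the highest multiple among the class 3 semaphorins. Each sequence holds the 250 bases before the start site of RefSeq, build GRCm38.p6, written 5′ to 3′ along the strand of the gene. The *Sema3c* window lies inside the gene as GENCODE M21 places it (start at 17574281), and the last bases of the *Sema3g* window lie past the GENCODE start at 31217860, so those bases may be transcribed. Capitals mark matches to the GC box (GGGCGG, on either strand).
*Sema3c*, chr5:17574566-17574815, plus strand: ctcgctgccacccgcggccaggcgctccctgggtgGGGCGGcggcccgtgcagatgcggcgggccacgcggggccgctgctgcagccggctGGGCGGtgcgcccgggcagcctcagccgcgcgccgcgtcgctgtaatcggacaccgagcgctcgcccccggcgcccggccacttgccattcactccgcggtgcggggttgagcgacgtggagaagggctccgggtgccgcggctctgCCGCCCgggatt
*Sema3e*, chr5:14025026-14025275, plus strand: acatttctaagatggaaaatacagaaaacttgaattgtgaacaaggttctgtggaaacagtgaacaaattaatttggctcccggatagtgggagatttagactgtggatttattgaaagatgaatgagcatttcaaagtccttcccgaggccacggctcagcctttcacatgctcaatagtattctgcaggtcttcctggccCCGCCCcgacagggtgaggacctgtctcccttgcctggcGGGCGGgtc
*Plxnd1*, chr6:115995006-115995255, minus strand: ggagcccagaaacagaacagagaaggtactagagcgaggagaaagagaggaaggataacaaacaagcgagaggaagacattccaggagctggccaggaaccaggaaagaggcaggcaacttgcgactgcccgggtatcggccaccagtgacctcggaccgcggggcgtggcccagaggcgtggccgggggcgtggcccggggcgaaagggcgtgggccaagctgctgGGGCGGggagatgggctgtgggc
*Sema3g*, chr14:31217623-31217872, plus strand: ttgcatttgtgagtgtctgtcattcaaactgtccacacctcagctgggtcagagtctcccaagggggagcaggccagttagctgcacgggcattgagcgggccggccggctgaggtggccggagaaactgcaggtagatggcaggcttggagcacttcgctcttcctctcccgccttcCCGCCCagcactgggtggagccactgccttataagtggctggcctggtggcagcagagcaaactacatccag
*Unc5b*, chr10:60831582-60831831, minus strand: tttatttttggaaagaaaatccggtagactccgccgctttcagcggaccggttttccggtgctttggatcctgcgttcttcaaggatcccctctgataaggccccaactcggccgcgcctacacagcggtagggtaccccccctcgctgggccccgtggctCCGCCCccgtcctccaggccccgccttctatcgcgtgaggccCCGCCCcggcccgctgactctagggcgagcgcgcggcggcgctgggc
The GC box was found 3 times in *Sema3c*, 2 times each in *Sema3e* and *Unc5b* and 1 time each in *Plxnd1* and *Sema3g*. Neither the TATA box (TATAAA), the CCAAT box (CCAAT) nor the AP-1 site (TGANTCA) was in these 5 windows on either strand. Of 73 promoters in the RefSeq table for 57 of the guidance genes, 69.9% held a GC box, against 32.7% of all 32851 promoters of the same length. The TATA box was in 2.74% of them against 12.4% of all promoters, the CCAAT box in 27.4% against 33.8%, and the AP-1 site in 4.11% against 6.75%. Their median GC content was 64.4% against 52.4% of all promoters, with a median of 15 CpG against 6. GC content varied widely among the 5 shown, from 48.0% in *Sema3e* to 78.4% in *Sema3c*.

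The class 3 semaphorins, secreted ligands of neuropilin and plexin complexes, held the largest share of genes without overlap between the genotypes among the classes. All 7 were tested, 3 were higher and 4 lower, and for 5 of them the genotypes did not overlap (2 above, 3 below). Over all genes tested, 10.3% lay above and 9.57% below without overlap. The class is small and 1 of 11 that were compared, and none of its genes passed the adjusted threshold in edgeR's test. *Sema3e*, which signals through *Plxnd1* without a neuropilin, had 2049, 1981 and 1361 normalized counts in *Nhe6*-knockout cultures 1 to 3 and 543, 434 and 980 in wildtype cultures 1 to 3. Every *Nhe6*-knockout culture was above every wildtype culture, with wildtype culture 2 the lowest. *Sema3e* was 2.75-fold higher, with a log2 fold change of 1.46 ± 0.34 (SE) and an adjusted p of 0.161. *Sema3g*, a semaphorin known from arterial endothelium, had 89.2, 75.3 and 40.7 normalized counts in *Nhe6*-knockout and 22.5, 11.4 and 18.2 in wildtype cultures. It was scarce in all cultures, and again the genotypes did not overlap. Its fold change was 3.92, the largest above 1 among the 55 genes (log2 1.97 ± 0.46, adjusted p = 0.165). Without wildtype culture 2 the log2 fold change was 1.23 for *Sema3e* and 1.74 for *Sema3g*, with adjusted p-values of 0.101 and 0.114.

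*Sema3c*, *Sema3d* and *Sema3f* were lower in *Nhe6*-knockout cultures. *Sema3d*, known for its part in the pattern of coronary and pulmonary veins, had 526, 461 and 298 normalized counts in *Nhe6*-knockout and 889, 6626 and 1664 in wildtype cultures. Wildtype culture 2 held 5.19 times the mean of the other wildtype cultures, and the genotypes did not overlap. The log2 fold change was -2.84 ± 0.77 with an adjusted p of 0.224, and without wildtype culture 2 it was -1.58 ± 0.34 with an adjusted p of 0.0703. *Sema3c*, which guides neural crest cells into the outflow tract of the heart, had 345, 346 and 641 normalized counts in *Nhe6*-knockout and 837, 18258 and 983 in wildtype cultures. Most of the difference lay in wildtype culture 2, at 20.1 times the mean of the other wildtype cultures, yet those too were above every *Nhe6*-knockout culture. Its log2 fold change was -3.91 ± 1.32 (adjusted p = 0.323), and -1.04 ± 0.30 without wildtype culture 2 (adjusted p = 0.139).

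*Sema3f*, a repellent of neuropilin-2 bearing cells, had 170, 227 and 187 normalized counts in *Nhe6*-knockout and 407, 677 and 285 in wildtype cultures. The genotypes did not overlap, and *Sema3f* was 2.34-fold lower (log2 -1.23 ± 0.34, adjusted p = 0.238), or -0.83 ± 0.24 on the log2 scale without wildtype culture 2. *Sema3a*, the classical collapsing factor, lay between 851 and 872 in *Nhe6*-knockout and between 694 and 917 in wildtype cultures, with a log2 fold change of 0.09 ± 0.14. *Sema3b* lay between 699 and 831 in *Nhe6*-knockout and between 792 and 1149 in wildtype cultures (log2 -0.26 ± 0.18), so neither was apart by genotype. *Sema3d*, *Sema3a*, *Sema3e* and *Sema3c* lie in this order on the plus strand of chromosome 5 (chr5:12383385-17730268, GRCm38), with lower and higher members side by side.

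The shares of the genes in the class were worked out from these same levels, so they are not a separate result. Summed per kilobase, the class stood at 590, 612 and 546 in *Nhe6*-knockout and at 653, 3740 and 732 in wildtype cultures, so wildtype culture 2 alone was far from the rest. *Sema3e* held 37.4%, 34.9% and 26.9% of this sum in *Nhe6*-knockout and 8.95%, 1.25% and 14.4% in wildtype cultures. *Sema3d* held 10.4%, 8.77% and 6.36% in *Nhe6*-knockout and 15.8%, 20.6% and 26.5% in wildtype cultures. The genotypes overlapped in neither share. The share of *Sema3a*, whose level overlapped, did not overlap either. It was 10.4%, 10.2% and 11.5% in *Nhe6*-knockout and 7.67%, 1.77% and 8.06% in wildtype cultures. How often shares lie apart in other classes or over all genes was not counted. In wildtype culture 2, *Sema3c* alone held 68.4% of the sum.

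**Figure D2:**
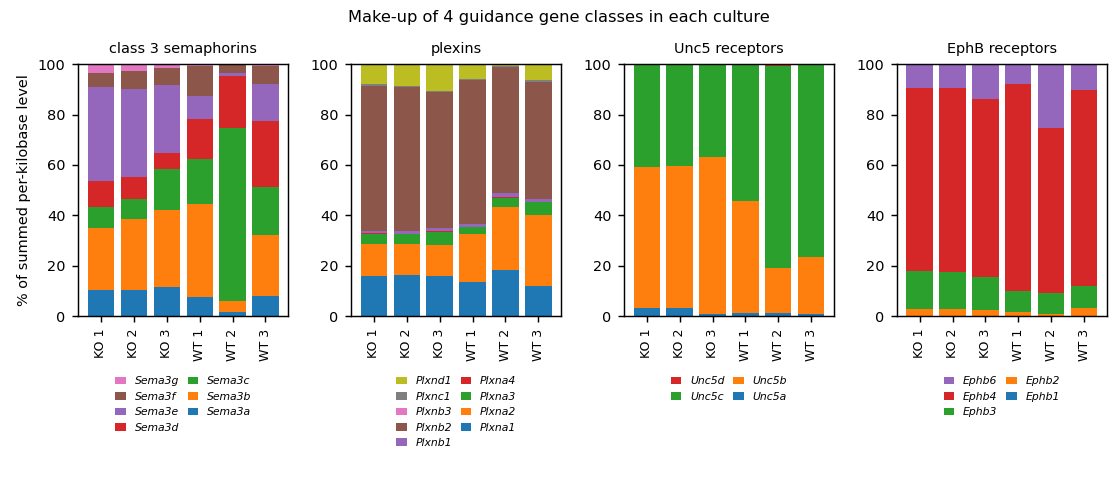
Share of each gene in the summed per-kilobase level of its class, in percent, for class 3 semaphorins, plexins, Unc5 receptors and EphB receptors, with 1 bar for each culture (KO, *Nhe6*-knockout; WT, wildtype). *Sema3e* takes 26.9% to 37.4% of the class 3 bars in *Nhe6*-knockout cultures and 1.25% to 14.4% in wildtype cultures, and *Sema3c* takes 68.4% in wildtype culture 2.

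Of the 13 transmembrane and membrane-anchored semaphorins, 11 were tested, with 8 higher and 3 lower. *Sema4c*, a ligand of plexin B2, had 637, 654 and 680 normalized counts in *Nhe6*-knockout and 521, 430 and 449 in wildtype cultures. The cultures of each genotype lay close together and apart from the other genotype, and the log2 fold change was 0.49 ± 0.14 (adjusted p = 0.249). Opposite-strand transcripts cover 7.27% of the exon bases of *Sema4c*, and the strand setting of the counting was not stated. *Sema7a*, a membrane-anchored ligand of integrins and plexin C1, had 865, 884 and 1065 in *Nhe6*-knockout and 747, 399 and 632 in wildtype cultures. It too was higher in every *Nhe6*-knockout culture (log2 0.66 ± 0.25, adjusted p = 0.372; 0.44 ± 0.16 without wildtype culture 2). *Sema6d* was the other gene of this group whose genotypes did not overlap, with 1592 to 2031 in *Nhe6*-knockout and 680 to 1578 in wildtype cultures (log2 0.66 ± 0.31), but the closest cultures were 1592 and 1578.

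*Sema5a*, with the highest mean of this group over the 6 cultures at 426 per kilobase, had 6811, 6257 and 6977 normalized counts in *Nhe6*-knockout and 8765, 2857 and 16040 in wildtype cultures. Wildtype culture 2 lay below and the other wildtype cultures above all *Nhe6*-knockout cultures. The log2 fold change was -0.46 ± 0.55 with all cultures and -0.90 ± 0.26 without wildtype culture 2 (adjusted p = 0.133). *Sema6a*, which regulates the survival of endothelial cells, had 356, 343 and 743 in *Nhe6*-knockout and 408, 141 and 437 in wildtype cultures, and the genotypes overlapped (0.55 ± 0.50). *Sema4b*, *Sema4d*, *Sema4f*, *Sema4g*, *Sema6b* and *Sema6c* had log2 fold changes from -0.21 to 0.68 and overlapping genotypes. *Sema4a*, under the filter, had 12.7, 7.44 and 11.4 normalized counts in *Nhe6*-knockout and 2.93, 3.10 and 5.35 in wildtype cultures, which did not overlap. *Sema5b* had at most 1.89 in any culture.

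**Figure D3:**
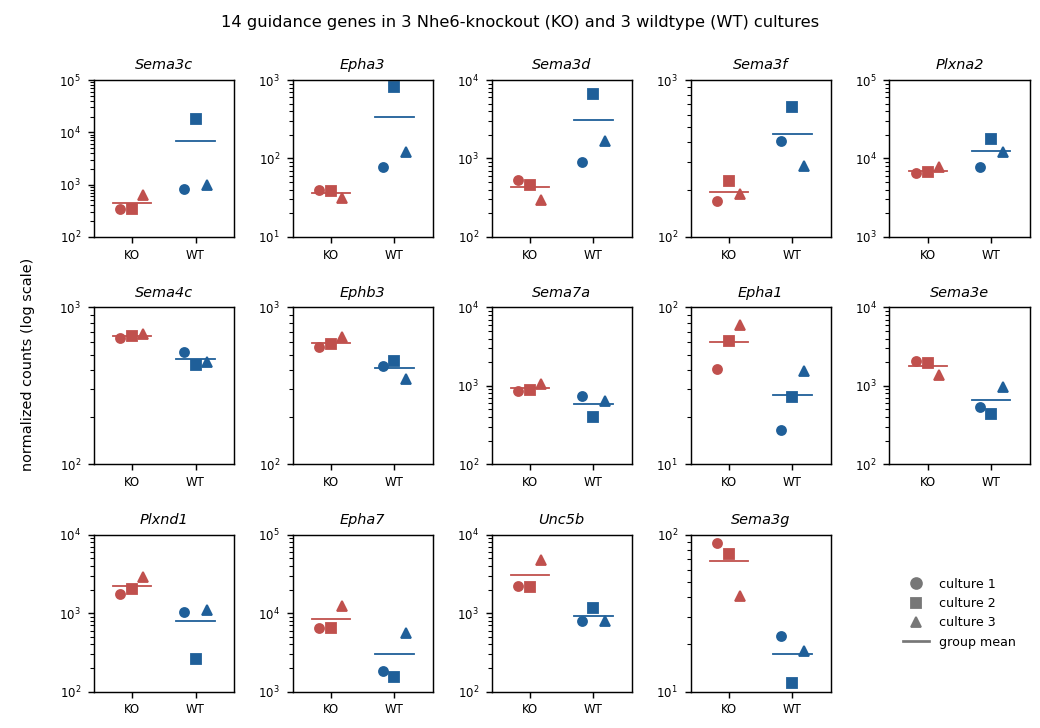
Normalized counts, on a log scale, of the 14 genes with an unadjusted p under 0.05, in *Nhe6*-knockout (KO, red) and wildtype (WT, blue) cultures. Marker shapes give the culture number and lines the group means, and only the points of *Plxna2* overlap between the genotypes.

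Among the plexins, the semaphorin receptors, 8 of 9 genes were tested, with 6 higher and 2 lower. *Plxnd1*, the receptor of *Sema3e* on endothelial cells, had 1759, 2008 and 2885 normalized counts in *Nhe6*-knockout and 1024, 262 and 1108 in wildtype cultures. As for its ligand, every *Nhe6*-knockout culture was above every wildtype culture and wildtype culture 2 was the lowest. *Plxnd1* was 2.78-fold higher, with a log2 fold change of 1.47 ± 0.53 and an adjusted p of 0.354. Without wildtype culture 2 the log2 fold change was 1.05 ± 0.23 (adjusted p = 0.0764). *Plxna2*, a receptor for class 3 and class 6 semaphorins, had 6444, 6705 and 7833 in *Nhe6*-knockout and 7750, 17937 and 11952 in wildtype cultures. Wildtype culture 1 was below *Nhe6*-knockout culture 3, so the genotypes overlapped, and the log2 fold change was -0.84 ± 0.31 (adjusted p = 0.363), or -0.50 ± 0.21 without wildtype culture 2. *Plxna2* held 12.4%, 12.0% and 12.4% of the summed per-kilobase level of the plexins in *Nhe6*-knockout and 18.9%, 24.8% and 28.1% in wildtype cultures. These shares did not overlap although its levels did, and they also depend on the levels of the other plexins.

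*Plxnb2*, a receptor of class 4 semaphorins, was the most abundant of all guidance genes by the mean of the 6 cultures, at 1704 per kilobase. It had 13455, 14398 and 15385 normalized counts in *Nhe6*-knockout and 10495, 16281 and 8925 in wildtype cultures. Only wildtype culture 2 was above the *Nhe6*-knockout cultures, and the log2 fold change was 0.28 ± 0.25, or 0.57 ± 0.14 without that culture. *Plxna1*, a receptor that pairs with neuropilins, showed the same arrangement, with 4382, 4832 and 5314 in *Nhe6*-knockout and 2941, 6995 and 2683 in wildtype cultures. With all cultures its log2 fold change was 0.20 ± 0.38 and its adjusted p 0.88. Without wildtype culture 2 it was 0.78 ± 0.14 with an adjusted p of 0.0452, and *Plxna1* was then the only guidance gene past the threshold, 1 of 57 tested (1.75%), against 2.88% of all genes in that fit. Opposite-strand transcripts cover 10.7% of its exon bases. *Plxna4* had a log2 fold change of 0.14 ± 0.91 with all cultures and 1.94 ± 0.48 without wildtype culture 2 (adjusted p = 0.0949). *Plxna3*, *Plxnb1* and *Plxnc1* had log2 fold changes from -0.30 to 0.33, with overlap, and *Plxnb3*, under the filter, had at most 8.80 normalized counts.

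Of the 9 EphA receptors 6 were tested, 5 higher and 1 lower. *Epha7*, with the highest mean level of them over the 6 cultures, had 6543, 6424 and 12263 normalized counts in *Nhe6*-knockout and 1829, 1549 and 5657 in wildtype cultures. In both genotypes culture 3 was the highest, and no culture of a genotype reached the range of the other. Its fold change was 2.79 (log2 1.48 ± 0.56, adjusted p = 0.378), and the log2 value without wildtype culture 2 was 1.16 ± 0.54. It held 64.7%, 64.6% and 76.4% of the summed EphA level per kilobase in *Nhe6*-knockout against 43.8%, 26.2% and 62.8% in wildtype cultures. *Epha3*, a receptor of A-type ephrins found on mesenchymal cells, had 39.3, 38.1 and 31.2 in *Nhe6*-knockout and 78.2, 810 and 120 in wildtype cultures. Wildtype culture 2 held 8.18 times the mean of the other wildtype cultures, and all of them were above the *Nhe6*-knockout cultures. The log2 fold change of *Epha3* was -3.21 ± 0.95 (adjusted p = 0.263), and -1.45 ± 0.32 without wildtype culture 2 (adjusted p = 0.0769).

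*Epha2*, which takes part in the assembly of endothelial cells in response to *Efna1*, had 275, 309 and 258 normalized counts in *Nhe6*-knockout and 135, 345 and 78.1 in wildtype cultures. Wildtype culture 2 was the highest and the other wildtype cultures the lowest of the 6. With all cultures its log2 fold change was 0.60 ± 0.52 (adjusted p = 0.725), and without wildtype culture 2 it was 1.39 ± 0.29 (adjusted p = 0.0659). *Epha4*, which binds both A-type and B-type ephrins, had 1935, 1806 and 1831 in *Nhe6*-knockout and 1393, 1562 and 1905 in wildtype cultures, which overlapped (0.20 ± 0.14). *Epha1* was at 40.4 to 77.6 in *Nhe6*-knockout and 16.6 to 39.6 in wildtype cultures (log2 1.11 ± 0.46, adjusted p = 0.420). Its genotypes were separated by less than 1 normalized count, and 6.01% of its exon bases overlap *Zyx* on the opposite strand. *Epha5* overlapped between the genotypes (0.10 ± 0.45), and *Epha6*, *Epha8* and *Epha10* had at most 6.19 normalized counts in any culture.

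Among the EphB receptors, 4 of 5 were tested, 2 higher and 2 lower. *Ephb4*, the venous partner of *Efnb2*, was the most abundant by the mean of the 6 cultures, at 510 per kilobase, and had 1888, 2094 and 2486 normalized counts in *Nhe6*-knockout and 3031, 2473 and 2217 in wildtype cultures. The genotypes overlapped, and the log2 fold change was -0.26 ± 0.17. *Ephb3*, a receptor of B-type ephrins, had 560, 586 and 647 in *Nhe6*-knockout and 422, 457 and 351 in wildtype cultures. It was higher in every *Nhe6*-knockout culture (log2 0.54 ± 0.16, adjusted p = 0.266). Its share of the summed EphB level per kilobase was 15.1%, 14.3% and 12.9% in *Nhe6*-knockout and 8.01%, 8.46% and 8.63% in wildtype cultures. *Ephb6*, which lacks kinase activity, had 196, 218 and 389 in *Nhe6*-knockout and 233, 776 and 232 in wildtype cultures, with wildtype culture 2 the highest (log2 -0.63 ± 0.56, and 0.20 ± 0.33 without it). *Ephb2* overlapped between the genotypes (0.40 ± 0.44), and *Ephb1* had at most 3.19 normalized counts.

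Of the ephrin-A genes, anchored ligands of EphA receptors, 1 was higher and 4 were lower, and for *Efna1* and *Efna5* the genotypes did not overlap. *Efna1*, a ligand induced in activated endothelium, had 56.3, 72.5 and 60.6 normalized counts in *Nhe6*-knockout and 99.8, 87.7 and 79.2 in wildtype cultures. All wildtype cultures were above the *Nhe6*-knockout cultures, and the log2 fold change was -0.49 ± 0.27 (adjusted p = 0.545). *Efna5*, at 458 per kilobase in *Nhe6*-knockout and 916 in wildtype cultures, had 1809, 1848 and 1886 in *Nhe6*-knockout and 2137, 6940 and 2006 in wildtype cultures. Apart from wildtype culture 2, the cultures differed little, and the log2 fold change was -1.0 ± 0.49 with all cultures and -0.17 ± 0.10 without it. *Efna4* had 150, 203 and 371 in *Nhe6*-knockout and 155, 463 and 107 in wildtype cultures, and its fold change was 1.00 with overlap.

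*Efna3*, 1 of 3 ephrin-A genes side by side on the minus strand of chromosome 3 with *Efna1* and *Efna4* (chr3:89271733-89338028, GRCm38), had 115, 111 and 142 normalized counts in *Nhe6*-knockout and 29.3, 576 and 50.3 in wildtype cultures. Wildtype culture 2 was the highest and the other wildtype cultures the lowest. Its log2 fold change was -0.83 ± 1.06 with all cultures and 1.62 ± 0.34 without wildtype culture 2 (adjusted p = 0.0696). Antisense transcripts cover 14.1% of the exon bases of *Efna3* and 10.5% of those of *Efna4*. *Efna2* had a log2 fold change of 0.00 ± 0.20 with overlap.

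The ephrin-B genes, transmembrane ligands of EphB receptors, all overlapped between the genotypes. *Efnb2*, the arterial member, had 3083, 3022 and 2024 normalized counts in *Nhe6*-knockout and 3084, 2431 and 2527 in wildtype cultures. *Nhe6*-knockout culture 3 was the lowest of the 6, and the log2 fold change was 0.02 ± 0.20. *Efnb1* had 1483, 1668 and 2453 in *Nhe6*-knockout and 1159, 2432 and 1287 in wildtype cultures. Its highest values were in *Nhe6*-knockout culture 3 and wildtype culture 2, and the log2 fold change was 0.20 ± 0.34, or 0.61 ± 0.24 without wildtype culture 2. *Efnb3* was less abundant, at 73.1 per kilobase against 506 for *Efnb1* and 393 for *Efnb2*, with a log2 fold change of -0.48 ± 0.57.

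**Figure D4:**
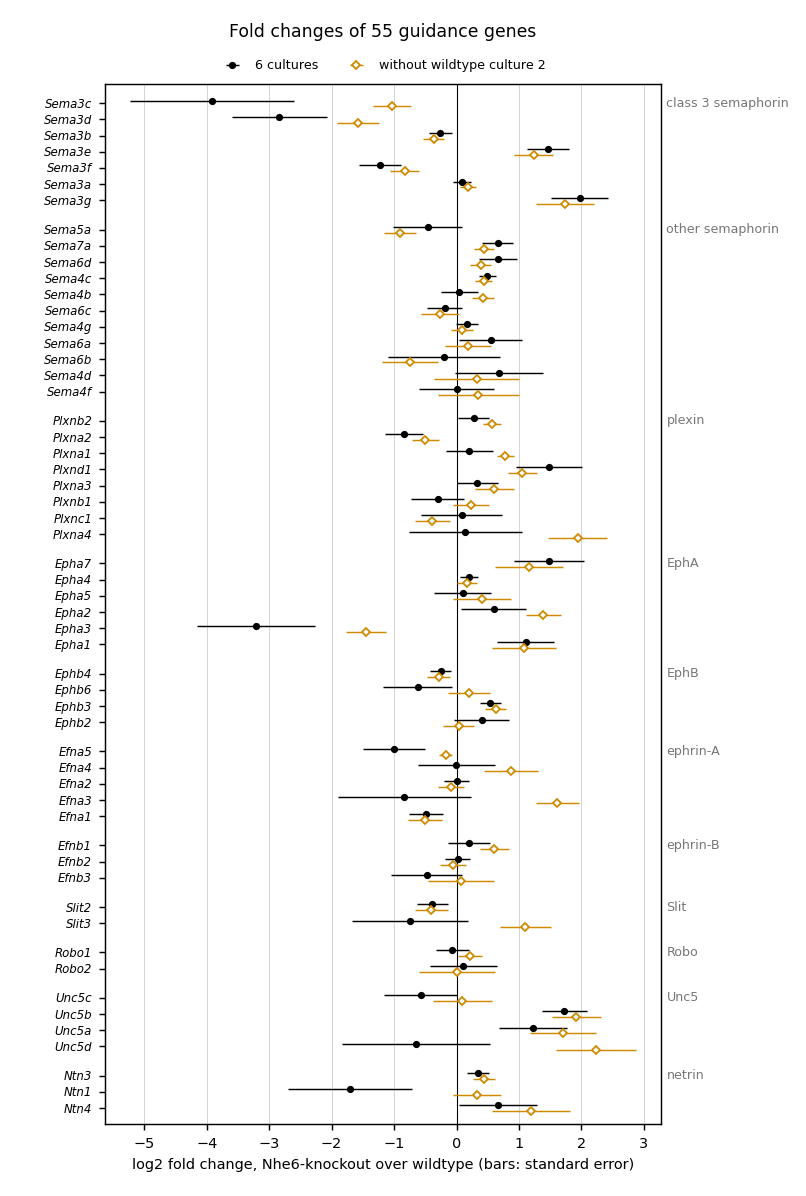
Log2 fold change of the 55 tested genes in *Nhe6*-knockout relative to wildtype cultures, with bars of 1 SE. Black points are from all 6 cultures and open diamonds from the fit without wildtype culture 2, in which *Efna3*, *Slit3*, *Plxna4* and *Unc5d* lie to the right of 0 by more than 1 SE.

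*Slit2*, *Robo1* and *Robo2* were abundant, and for none of the 4 tested Slit and Robo genes did the genotypes lie apart. *Slit2*, at 773 per kilobase on average in *Nhe6*-knockout and 1009 in wildtype cultures, had 18719, 18394 and 21843 normalized counts in *Nhe6*-knockout and 18622, 25236 and 33164 in wildtype cultures. The lowest wildtype culture lay among the *Nhe6*-knockout cultures, and the log2 fold change was -0.39 ± 0.24 (adjusted p = 0.606). *Slit3* had 1389, 1508 and 588 in *Nhe6*-knockout and 592, 4765 and 489 in wildtype cultures. Wildtype culture 2 held 8.82 times the mean of wildtype cultures 1 and 3. With that culture *Slit3* had a log2 fold change of -0.75 ± 0.92, and without it 1.10 ± 0.41 (adjusted p = 0.218).

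*Robo1*, the main Slit receptor on many cells, had 6979, 6564 and 7386 normalized counts in *Nhe6*-knockout and 4841, 9997 and 7145 in wildtype cultures. The wildtype range enclosed the *Nhe6*-knockout range, and the log2 fold change was -0.07 ± 0.26. *Robo2* had 3916, 3755 and 9071 in *Nhe6*-knockout and 2484, 4502 and 8588 in wildtype cultures. Culture 3 of each genotype was the highest, and the log2 fold change was 0.10 ± 0.54. *Robo4*, the Robo of endothelial cells, had no count in any of the 6 libraries, and a count of 0 allows up to 3 counts in each library, for counting error only. *Robo3* had at most 5.31 and *Slit1* at most 4.28 normalized counts.

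Among the netrin receptors, *Unc5b* differed most. *Unc5b*, which marks arterial and tip endothelial cells, had 2194, 2164 and 4728 normalized counts in *Nhe6*-knockout and 801, 1154 and 797 in wildtype cultures. The lowest *Nhe6*-knockout culture stood well above the highest wildtype culture, and wildtype culture 2 was the nearest of the wildtype cultures. *Unc5b* was 3.30-fold higher, with a log2 fold change of 1.72 ± 0.36 and an adjusted p of 0.125, the smallest of the 55 genes. Its adjusted p ranged from 4.02e-04 with DESeq2 to 0.471 over the alternative fits, and it was 0.0655 without wildtype culture 2. *Unc5b* held 56.0%, 56.3% and 62.5% of the summed Unc5 level per kilobase in *Nhe6*-knockout and 44.5%, 18.1% and 22.5% in wildtype cultures.

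*Unc5c* was at 315 per kilobase on average in *Nhe6*-knockout and 469 in wildtype cultures, against 484 and 147 for *Unc5b*. It had 4869, 4694 and 8506 normalized counts in *Nhe6*-knockout and 2978, 15655 and 8279 in wildtype cultures. The lowest and the highest culture were both wildtype, and the log2 fold change was -0.57 ± 0.58, or 0.09 ± 0.47 without wildtype culture 2. *Unc5a* was at 35.0 to 85.5 in *Nhe6*-knockout and 16.6 to 45.4 in wildtype cultures (log2 1.23 ± 0.54, adjusted p = 0.446). *Unc5d* was scarce, with 9.47 to 21.4 normalized counts in *Nhe6*-knockout cultures, 2.93 and 3.21 in wildtype cultures 1 and 3 and 64.0 in wildtype culture 2. Its log2 fold change was -0.64 ± 1.18 with all cultures and 2.23 ± 0.64 without wildtype culture 2 (adjusted p = 0.133).

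The 3 netrins that were tested were at 25.3 to 79.3 per kilobase, against a median of 62.4 over the 66 guidance genes. *Ntn3*, the most abundant, had 415, 428 and 517 normalized counts in *Nhe6*-knockout and 348, 403 and 318 in wildtype cultures. Every *Nhe6*-knockout culture was above every wildtype culture, by a small step (log2 0.35 ± 0.17, adjusted p = 0.496). *Ntn1*, the ligand of DCC, neogenin and the Unc5 receptors, had 70.1, 75.3 and 140 in *Nhe6*-knockout and 81.2, 783 and 69.5 in wildtype cultures. Wildtype culture 2 held 10.4 times the mean of wildtype cultures 1 and 3. With that culture *Ntn1* had a log2 fold change of -1.71 ± 0.99, and without it 0.33 ± 0.39. *Ntn4*, a basement membrane netrin of vessels, had 71.2, 63.2 and 214 in *Nhe6*-knockout and 41.1, 119 and 59.9 in wildtype cultures, which overlapped (0.67 ± 0.63). *Ntn5*, under the filter, had 2.93 to 11.7 normalized counts.

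The same counts were also made without wildtype culture 2. In that fit 57 guidance genes were tested, and 23 of them (40.4%) had an unadjusted p under 0.05, 18 higher and 5 lower, against 19.5% of all genes. The genotypes did not overlap for 31 of the 57 genes (54.4%), 23 higher and 8 lower, against 38.2% of all genes. With 3 against 2 cultures these shares rest on fewer libraries than those above. Leaving out a culture cannot make the genotypes of a gene overlap. For the same genes the count without overlap could therefore only stay or rise, and its rise is no result of its own.

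The partners of these families were read from a list of 60 genes chosen by role, of which 52 were tested, with 30 higher and 22 lower and a median of 0.08 in log2 fold change. None passed the adjusted threshold in edgeR's test, and DESeq2's Wald test called 3, where it called 4.69% of all genes. At an unadjusted p under 0.05, 6 of the 52 were higher and 4 lower, where 6.14% and 5.71% of all genes were. Without overlap, 8 were higher and 4 lower, where 10.3% and 9.57% of all genes were. *Nrp1*, the neuropilin that pairs with plexins for *Sema3a* and also binds VEGF, was at 19461 to 22456 normalized counts in *Nhe6*-knockout and 10963 to 25998 in wildtype cultures (log2 0.09 ± 0.32). *Nrp2*, the neuropilin for *Sema3c* and *Sema3f*, had 225, 254 and 97.5 in *Nhe6*-knockout and 63.6, 3174 and 101 in wildtype cultures. As for *Sema3c*, wildtype culture 2 was far above the rest, and the log2 fold change was -2.53 ± 1.47 with it and 1.22 without it. *Neo1*, a receptor of netrins and repulsive guidance molecules, was abundant in all cultures (0.09 ± 0.34), whereas *Dcc* had 11.4 to 31.2 normalized counts.

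*Farp1* and *Mical3*, which act downstream of plexins, were higher in every *Nhe6*-knockout culture. *Farp1*, an exchange factor for small GTPases, had 2653, 2846 and 2458 normalized counts in *Nhe6*-knockout and 1619, 1804 and 1444 in wildtype cultures (log2 0.71 ± 0.13, adjusted p = 0.106). *Mical3*, of the family of enzymes that oxidize actin, was at 1674 to 1807 in *Nhe6*-knockout and 1055 to 1166 in wildtype cultures (log2 0.63 ± 0.11, adjusted p = 0.0983). *Grip1*, a scaffold that binds B-type ephrins, had 524, 568 and 635 in *Nhe6*-knockout and 250, 26.8 and 190 in wildtype cultures (log2 1.88 ± 0.70, adjusted p = 0.369). Without wildtype culture 2 these 3 genes had adjusted p-values of 0.0379, 0.0484 and 0.0330, in a fit that called 2.88% of all genes. The exchange factors *Kalrn* (log2 0.94 ± 0.28) and *Trio* (0.51 ± 0.16) and the kinase *Abl1* (0.30 ± 0.12) were the other higher genes, and the Unc5 ligands *Flrt3* (-0.81 ± 0.20) and *Flrt1* (-0.61 ± 0.20), the scaffold *Sdcbp* (-0.39 ± 0.16) and the GTPase *Rras* (-0.28 ± 0.10) were the lower ones at an unadjusted p under 0.05.

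Markers of other cell types and of the cell cycle were read beside these genes, and none of the cell cycle, mural, fibroblast or macrophage genes passed the adjusted threshold with all 6 cultures. Without wildtype culture 2, 9 of 16 cell cycle genes, 2 fibroblast markers, 1 mural marker and 0 macrophage markers passed, against 2.88% of all genes in that fit. All 16 genes of a cell cycle list were higher in *Nhe6*-knockout cultures, 15 of them at an unadjusted p under 0.05 (6.14% of all genes), with a median of 2.62 in log2 fold change and summed levels of 8396 to 15328 against 2605 to 3940 normalized counts. Of 12 mural markers 7 were higher and 5 lower, with sums of 26245 to 27467 against 21397 to 40296, and wildtype culture 2 held 16275 normalized counts of *Acta2* against 29.3 and 70.6 in the other wildtype cultures. Fibroblast markers, 8 of 12 higher, summed to 238946 to 275249 in *Nhe6*-knockout and 183362 to 320920 in wildtype cultures. Macrophage markers, of which 10 of 12 were tested and 9 were higher, summed to 1354 to 3390 in *Nhe6*-knockout cultures and to 3310, 96.0 and 1790 in wildtype cultures 1 to 3. Of the smaller lists, 1 of 3 tested melanocyte markers, 1 of 7 epithelial markers and 2 of 8 markers of glia and neurons were higher. No fibroblast, mural or cell cycle marker was at 0 in all libraries, and their part in the differences of the guidance genes was not tested.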

How the data were processed

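Primary endothelial cell cultures of the stria vascularis (3 *Nhe6*-knockout, 3 wildtype) were sequenced as poly(A)-enriched, stranded libraries with 75 cycles. Per the submitters' processing notes, the authors used bcl2fastq 2.20.0.422, STAR 2.7.7a, HTSeq 0.13.5 and DESeq2 1.26.0 with the build mm10, and the deposited table holds raw counts of reads per gene symbol. Summary lines, 22.2% of reads, were left out, and 0 columns of other samples were present.

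Counts were filtered with filterByExpr (minimum count 10), scaled by TMM and compared with edgeR 4.0.16 in R 4.3.3, with genotype alone in the design and Benjamini-Hochberg adjustment over 13479 genes. Alternatives used DESeq2 1.42.0, limma 3.58.1, other scalings and filters, and each culture left out in turn. The test was tried on simulated data. Exon lengths and positions were from GENCODE M21, and figures were drawn in Python 3.11.15. Replicate numbers were not treated as pairs in the main fit. Deviations of same-numbered cultures from their group means correlated at 0.198, -0.204 and 0.0937. With 3 cultures per genotype these values cannot show whether cultures were paired. Values in all cultures are given for the 12 genes with the smallest p, the 2 most abundant of each class and genes with a known vascular role. The genes, lists and tests were chosen with earlier results of these data known. The level of the targeted gene is not reported here.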

Additional observations from a re-analysis of the deposited data

How the results depend on the processing

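No guidance gene passed the adjusted threshold in 12 of 14 alternatives. DESeq2's Wald test called 6 guidance genes, 3 partner genes and 4.69% of all genes, where edgeR called 0, 0 and 0.0668%. Leaving out a culture gave 0 to 1 guidance genes and 0 to 3 partner genes. The highest values came without wildtype culture 2, where 2.88% of all genes passed. The 14 guidance genes at an unadjusted p under 0.05 became 8 without *Nhe6*-knockout culture 3 and 23 without wildtype culture 2. The latter fit gave 19.5% of all genes such a p, and the share in the former was not worked out. These 2 fits rest on fewer samples, and the cause was not tested further. The 17 guidance genes without overlap became 17 to 31. Leaving out a culture cannot add overlap, so for the same genes this count could only stay or rise there. With the replicate block, 0 guidance genes passed and 13 had an unadjusted p under 0.05, against 14 without it, and no call at the adjusted threshold changed. Of 33 named genes, 22 kept their direction in all alternatives. *Efna4* (-0.0022) turned to 0.0498 with upper-quartile normalization, 0.0049 with 10 counts in every library, 0.20 with limma-voom, 0.16 with the replicate block and 0.18 with *Nhe6*-knockout cultures 1 and 2 summed. *Efnb2* (0.02) turned to -0.0021, -0.0022 and -0.0805 with limma-voom, the replicate block and the summed cultures. Leaving out a culture moved the log2 fold change across 0 for *Efna4* (-0.46 to 0.88), *Efnb1* (-0.054 to 0.61), *Efnb2* (-0.0925 to 0.18), *Ephb6* (-1.004 to 0.20), *Ntn1* (-2.19 to 0.33), *Ntn4* (-0.13 to 1.20), *Robo1* (-0.30 to 0.21), *Robo2* (-0.44 to 0.67), *Sema5a* (-0.90 to 0.19), *Slit3* (-1.21 to 1.10) and *Unc5c* (-0.995 to 0.0913). Genes under the filter of 10 counts had no value in the main fit. *Sema4a* and *Ntn5* entered the fit without wildtype culture 2 (adjusted p = 0.302 and 0.428). With no filter beyond 1 count, 0 guidance genes passed.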
